A study of Sus scrofa with 10 samples.

Results

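Peripheral blood taken from piglets at day 7 (D7) was compared here with blood taken at day 28 (D28), which amounted to 4 of the 10 libraries of a series on blood development in the Qingyu pig, a domestic breed. All pigs of the series were healthy females, and the labels give suckling as the stage of the 7-day-old pigs and weaning as that of the 28-day-old pigs. Each library came from whole blood of a different pig, 2 pigs at each age, so that no animal was followed from one age to the next, and age and weaning cannot be told apart. Pigs of 180 days (D180) and of 2 years (Y2), also 2 of each, were used to ask whether a difference between D7 and D28 lasted. The question the comparison addresses is which coding and long noncoding RNAs of the blood change over the last weeks of suckling.

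Whole blood RNA is a mixture. Red cells and their reticulocyte precursors carry very large amounts of haemoglobin mRNA, platelets carry the RNA of megakaryocytes, and the white cells contribute the rest. Neutrophils and monocytes, the cells of the innate response, are present from birth, whereas T cells and natural killer (NK) cells that have acquired a killing programme of perforin and granzymes accumulate as the piglet meets microbes and loses the antibodies received from its mother in colostrum. Fewer cells of a type and less RNA per cell cannot be told apart in such samples.

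Expression was deposited as FPKM, fragment numbers corrected for transcript length and for the library's mapped fragments, for 12354 mRNAs and 5946 lncRNAs. Because FPKM are shares of a library, a change in a few abundant RNAs moves all others, and every result is therefore given on 2 scales: as deposited, and after median-of-ratios scaling, in which a library is divided by 1 factor, the median over mRNAs of the level in that library relative to the geometric mean across the 10 libraries. Differences are log2(FPKM + 1) at D28 minus D7 with their SE from limma, a scale on which changes at low FPKM look smaller than they are. A gene was called higher or lower when its Benjamini-Hochberg adjusted p was at most 0.05 and its difference at least 1.5 either way. The spread between pigs was estimated over all 5 ages. With 2 pigs on each side the smallest p of an exact permutation test is 0.333, and none was run.

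The factors were 0.501 and 0.539 in the 2 D7 libraries and 1.00 and 0.971 in the 2 D28 libraries, which means that the typical mRNA had a larger share of the library at D28. They were 2.87 and 3.03 at D180 and 1.60 and 1.59 at Y2. The 10 mRNAs with the highest mean FPKM held 90.7% and 90.1% of the summed mRNA FPKM at D7 and 88.0% and 86.9% at D28. HBB, the haemoglobin beta chain, had 408938 and 424983 FPKM at D7 and 343904 and 320288 FPKM at D28, a difference of -0.33 ± 0.26 as deposited (adjusted p = 0.28) and of -1.25 ± 0.46 after scaling (adjusted p = 0.061). The part of the 10 most abundant mRNAs in the results was examined only by removing them, with the counts given below. Whether they caused the shift of the other mRNAs was not tested. Over all mRNAs the median difference was 0.46 as deposited and 0.02 after scaling, and over all lncRNAs it was 0.07 and -0.01.

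As deposited, 249 mRNAs were called higher at D28 (2.02% of those tested) and 47 lower (0.38%). After scaling the balance turned, with 58 called higher (0.469%) and 225 lower (1.82%). With the 10 most abundant mRNAs removed and the rest of each library rescaled, 119 were higher and 95 lower. The 58 that were higher after scaling were all among the 249, and the 47 that were lower as deposited were all among the 225. Calls that stand on both scales are thus 58 upward and 47 downward, and no mRNA was called in opposite directions. Scaling moved the differences downward, because the factors were lower at D7 than at D28. The nesting follows largely from that shift and is no agreement between independent measures. Judged on the adjusted p without the fold limit, 65.3% of all mRNAs were higher and 5.9% lower as deposited, against 18.4% and 22.8% after scaling. The levels of both D28 pigs lay above those of both D7 pigs in 77.2% of mRNAs as deposited and in 35% after scaling, and below them in 9.62% and 34.2%.

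**Figure D1:**
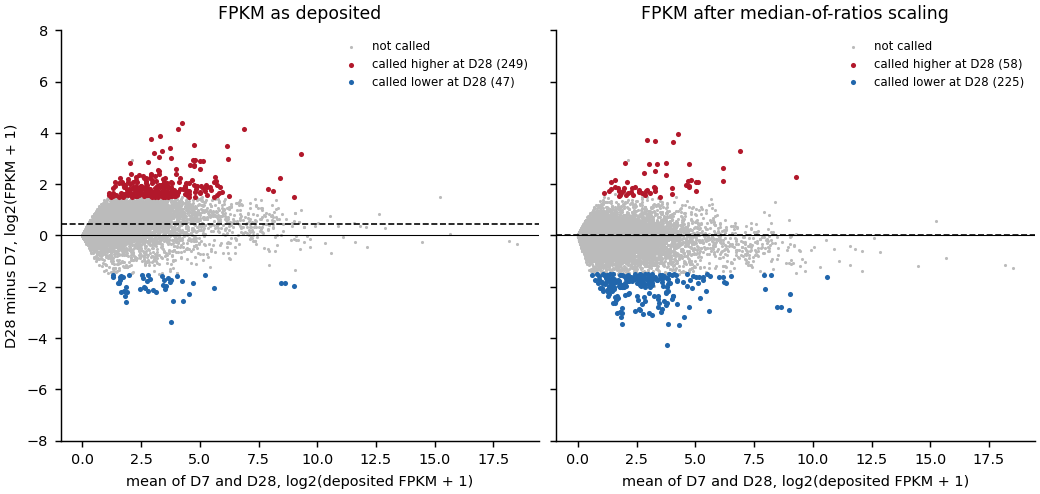
Each point is an mRNA, placed by its mean level over the D7 and D28 libraries (x axis, log2(FPKM + 1)) and by its D28 minus D7 difference (y axis, log2), as deposited and after median-of-ratios scaling, with called mRNAs coloured and the median of all mRNAs as a dashed line. The cloud lies above 0 as deposited, with a median of 0.46, and around 0 after scaling, with a median of 0.02, while 2 mRNAs without a symbol lie beyond the drawn range.

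Genes of cytotoxic lymphocytes held more of the upward calls than any other of the 19 lists of genes examined. Of the 20 listed NK and cytotoxic genes in the table, 14 were called higher as deposited and 10 after scaling, none was called lower on either scale, and the median difference was 2.10 and 1.66. The FPKM summed over the list were 37.3 and 53.2 in the D7 pigs and 405 and 356 in the D28 pigs, and after scaling 74.4 and 98.7 against 405 and 367. CX3CR1, the fractalkine receptor carried by killer lymphocytes and by monocytes, had 0.721 and 0.877 FPKM at D7 and 28.9 and 32.4 FPKM at D28. Its difference was 4.14 ± 0.09 as deposited (adjusted p = 9.2e-08) and 3.66 ± 0.10 after scaling (adjusted p = 1.6e-07). GZMA, the granule protease granzyme A, had 1.28 and 1.27 FPKM at D7 and 23.5 and 23.0 FPKM at D28, with differences of 3.41 ± 0.07 and 2.83 ± 0.06 (adjusted p = 6.3e-08 and 8.7e-08). TBX21, the transcription factor T-bet that directs the killing programme of lymphocytes, rose from 0.833 and 0.978 FPKM to 18.0 and 17.6 FPKM, by 3.31 ± 0.07 as deposited and 2.80 ± 0.06 after scaling.

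The granule proteins and ligands of the same cells followed. PRF1, which forms the pores through which granzymes enter a target cell, had 0.683 and 0.806 FPKM at D7 and 7.86 and 7.97 FPKM at D28 (2.35 ± 0.08 as deposited, 1.89 ± 0.08 after scaling). GNLY, a membrane-lysing peptide of the granules, differed by 2.96 and 2.14, GZMH by 2.86 and 2.42, and NKG7, a granule membrane protein, by 2.73 and 1.91. Among the receptors and signals, the chemokine CCL5 had 10.2 and 11.2 FPKM at D7 and 133 and 129 FPKM at D28 (3.49 ± 0.11 and 2.63 ± 0.12). The death ligand FASLG rose by 2.38 and 2.08, the protease inhibitor CST7 by 2.54 and 1.90, the activating receptor KLRK1 by 2.28 and 1.84, and IL2RB, a receptor chain for growth signals of lymphocytes, by 2.60 and 1.84. S1PR5, a sphingosine phosphate receptor of NK cells, and ADGRG1, an adhesion receptor of cytotoxic lymphocytes, were higher by 3.21 and 3.52 as deposited and by 2.80 and 2.77 after scaling. CD8A, a chain of the CD8 co-receptor, had 1.91 FPKM in both D7 pigs and 26.2 and 20.0 FPKM in the D28 pigs. Its difference was 3.04 ± 0.17 as deposited and 2.37 ± 0.15 after scaling. CD8B, the other chain, had 1.04 and 0.956 FPKM at D7 and 4.15 and 3.83 FPKM at D28. It differed by 1.32 and 0.79 and was called on neither scale.

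The remaining listed members were less clear. The activating receptors NCR1 and CD244 and the granzyme GZMM passed both limits only as deposited, with 1.65, 1.78 and 1.80, and stood at 1.48, 1.19 and 1.32 after scaling. GZMK, KLRB1, KLRD1, EOMES and XCL1 were not called, with differences between 0.36 and 1.14 as deposited, and IL18RAP, a cytokine receptor chain, stood at -0.43 and -1.08. CTSW, a lysosomal protease of cytotoxic cells, had 4.41 and 17.9 FPKM at D7 and 72.9 and 19.2 FPKM at D28, and its call as deposited (1.93 ± 0.65, adjusted p = 0.025) was lost without the first D7 pig (1.03) and without the first D28 pig (0.997). Markers of monocytes and dendritic cells did not follow CX3CR1: of 11 in the table, CX3CR1 was the single one called higher on either scale, and the list had a median of -0.17 as deposited and -0.69 after scaling.

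Several genes outside the lymphocyte groups rose as steeply. REXO2, an oligoribonuclease that clears short RNA fragments in mitochondria, had 10.7 and 12.5 FPKM at D7 and 209 and 237 FPKM at D28, a difference of 4.15 ± 0.10 as deposited and 3.28 ± 0.10 after scaling. TFF1, a trefoil peptide known from mucosal surfaces, had 0.0638 and 0.0382 FPKM at D7 and 12.9 and 13.6 FPKM at D28 (3.76 ± 0.07 and 3.72 ± 0.07). TAGLN, an actin-binding protein known from smooth muscle, had 0.258 and 0.213 FPKM at D7 and 17.8 and 16.8 FPKM at D28 (3.89 ± 0.11 and 3.67 ± 0.12). These genes were chosen among called mRNAs whose D28 pigs both lay above both D7 pigs, so that separation adds no support. DYNLRB2, a dynein light chain, rose by 3.07 and 2.52, and TSPAN31, a tetraspanin, by 2.99 and 2.11.

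A set of genes of amino acid supply was also among those higher at D28. It was put together after the values were seen and belongs to none of the lists. ASNS, asparagine synthetase, had 4.73 and 5.36 FPKM at D7 and 44.6 and 45.6 FPKM at D28, a difference of 2.93 ± 0.09 as deposited and 2.13 ± 0.08 after scaling. SARS1, the seryl-tRNA synthetase, had 4.70 and 5.75 FPKM and then 39.2 and 43.1 FPKM (2.76 ± 0.12 and 1.95 ± 0.13). SLC3A2, the heavy chain shared by several amino acid transporters, had 3.95 and 4.15 FPKM and then 26.5 and 25.2 FPKM (2.41 ± 0.07 and 1.63 ± 0.06). GARS1, the glycyl-tRNA synthetase, was called only as deposited, with 1.83 ± 0.09 against 1.27 ± 0.09 after scaling. In each of these genes both D28 pigs lay above both D7 pigs on both scales. That adds no support, because it holds for every mRNA called higher.

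**Figure D2:**
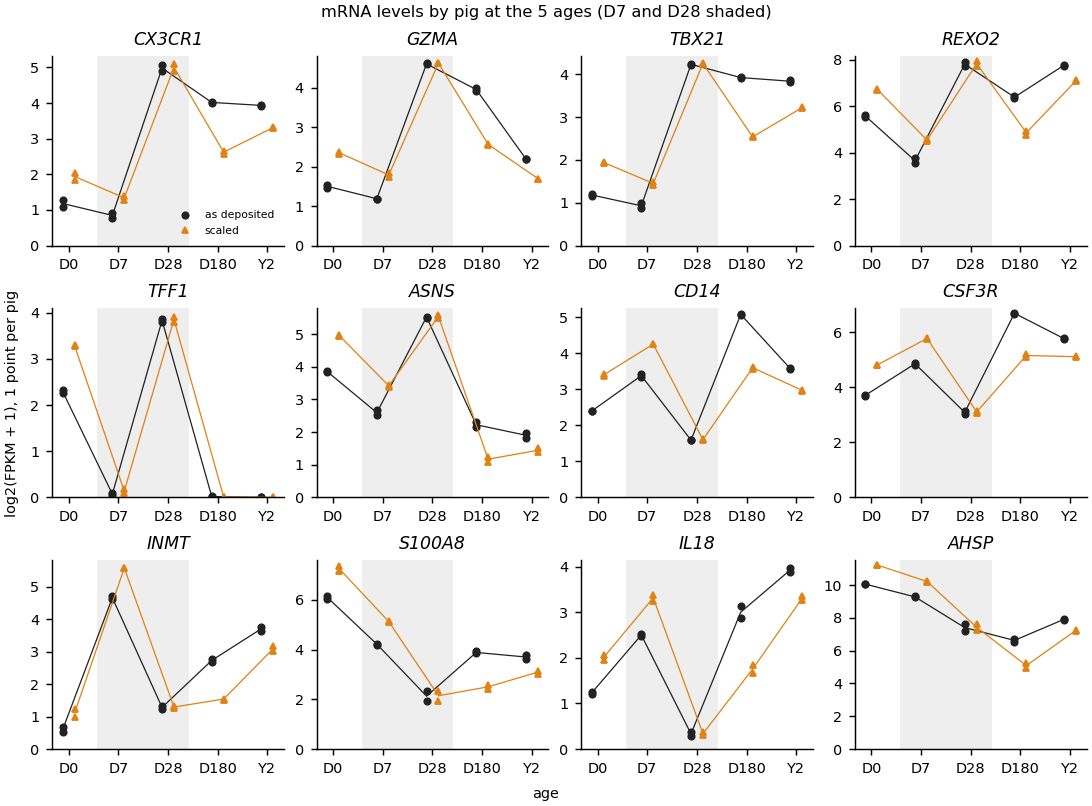
Levels of 12 mRNAs in each pig at the 5 ages (x axis, age; y axis, log2(FPKM + 1)), with black points as deposited and orange points after median-of-ratios scaling. CX3CR1, GZMA and TBX21 climbed between D7 and D28 and stayed above their D7 level as deposited, TFF1 and ASNS were high at D28 and low again at D180 and Y2, and CD14 and CSF3R dipped at D28.

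The T cell receptor genes rose in share of the library, and far less against the typical mRNA. Of 26 listed genes of the receptor complex and its signalling, 8 were called higher as deposited and 1, CD8A, after scaling, and none was called lower. On the adjusted p alone, 23 were higher as deposited, and 18 were higher and 3 lower after scaling, with medians of 1.32 and 0.51. Of all mRNAs, 65.3% were higher as deposited, and 18.4% were higher and 22.8% lower after scaling. CD3E, a signalling chain of the receptor, had 8.24 and 8.97 FPKM at D7 and 30.8 and 32.8 FPKM at D28 (1.77 ± 0.08 and 0.92 ± 0.07). The kinase LCK, which starts the receptor's signal, differed by 1.71 ± 0.07 and 0.88 ± 0.08, and the phospholipase PLCG1 by 1.53 and 0.91. NFATC2, a transcription factor released into the nucleus by calcium after receptor signalling, had 2.14 and 2.28 FPKM at D7 and 9.78 and 10.4 FPKM at D28 (1.78 ± 0.08 as deposited, adjusted p = 1.2e-06, and 1.09 ± 0.08 after scaling, adjusted p = 2.3e-05). PAK2, TEC and SOS2, which act in the same pathway, differed by 0.66, 0.14 and 0.16 as deposited and by -0.16, -0.50 and -0.61 after scaling. The calls of CD3D, PRKCQ and PLCG1 were marginal as deposited (1.52, 1.58 and 1.53). They were lost with the first D7 pig (1.43) or the second D28 pig (1.46) left out for CD3D, with the second D7 pig left out for PRKCQ (1.47) and with the first D28 pig left out for PLCG1 (1.39). When the 10 most abundant mRNAs were removed instead of the median-of-ratios scaling, LCK, CD3E, NFATC2 and PLCG1 were not called either.

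Other lymphocyte lists had the same form. Their counts must be read beside all mRNAs, of which 65.3% were higher by the adjusted p alone as deposited and 18.4% after scaling. Of 20 genes of naive and memory T cells, 17 were higher as deposited by the adjusted p alone and 12 after scaling, but IL2RB was the single gene called higher on either scale. Of 21 B cell and plasma cell genes, 19 were higher by the adjusted p as deposited and 12 after scaling, with medians of 0.80 and 0.30. MS4A1, the B cell surface protein CD20, had 3.10 and 3.23 FPKM at D7 and 13.5 and 15.7 FPKM at D28 and was called as deposited (1.90 ± 0.08) and not after scaling (1.15 ± 0.08). JCHAIN, which joins IgA and IgM molecules, was called as deposited (1.69) and not without the second D28 pig (1.36). Of 9 genes of presentation on MHC class II, 7 were higher by the adjusted p alone as deposited and 6 after scaling. As deposited, 7 of 9 is near the 65.3% of all mRNAs. SLA-DQB1, a class II beta chain, was called as deposited (1.94 ± 0.07, from 11.2 and 10.7 FPKM to 45.3 and 44.3 FPKM) and not after scaling (1.07 ± 0.09).

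Of the 47 mRNAs that were lower at D28 on both scales, 6 belonged to any of the lists, and the steepest falls were of genes outside them. INMT, a methyltransferase of indole amines, fell furthest among the genes with a symbol. It had 23.4 and 25.0 FPKM at D7 and 1.51 and 1.36 FPKM at D28, with differences of -3.37 ± 0.08 as deposited (adjusted p = 1e-07) and -4.28 ± 0.09 after scaling (adjusted p = 8.7e-08). At D0 it stood at 0.586 and 0.450 FPKM, so that D7 was a peak. TGM3, a transglutaminase, fell by 2.36 as deposited and 3.18 after scaling, and SDS, serine dehydratase, had 36.4 and 37.7 FPKM at D7 and 7.28 and 6.37 FPKM at D28 (-2.28 ± 0.07 and -3.19 ± 0.07). The matrix proteins TGFBI and TINAGL1 both fell by 2.21 as deposited, and by 3.09 and 3.03 after scaling.

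Among the genes of innate cells, CD14, the monocyte co-receptor for bacterial lipopolysaccharide, had 9.08 and 9.73 FPKM at D7 and 2.02 and 2.00 FPKM at D28 (-1.79 ± 0.06 and -2.65 ± 0.06). CSF3R, the receptor for the neutrophil growth factor G-CSF, had 27.2 and 28.7 FPKM and then 7.89 and 7.13 FPKM (-1.77 ± 0.07 and -2.67 ± 0.06). S100A8, a subunit of the calcium-binding protein calprotectin of neutrophils, had 17.3 and 17.9 FPKM and then 2.83 and 3.99 FPKM (-2.09 ± 0.12 and -2.98 ± 0.13). All 3 were lower in both D28 pigs, as was every mRNA called lower. IL18, an inflammatory cytokine that acts on NK and T cells, had 4.73 and 4.59 FPKM at D7 and 0.300 and 0.223 FPKM at D28 (-2.17 ± 0.09 and -2.98 ± 0.09). LGALS3, a galectin of macrophages, fell by 2.14 and 3.02, STEAP4, a metalloreductase, by 1.98 and 2.87, ADGRE3, a myeloid adhesion receptor, by 2.04 and 2.91, and MARCKS, a membrane-bound substrate of protein kinase C, by 1.92 and 2.81. CFD, the protease factor D of the alternative complement pathway, had 39.0 and 41.8 FPKM at D7 and 11.2 and 9.57 FPKM at D28 (-1.86 ± 0.09 and -2.77 ± 0.09), and was the only called gene among 15 genes of complement, immunoglobulin receptors and Toll-like receptors.

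The neutrophil lists show how much of this depended on scaling. Of 17 genes of neutrophil chemotaxis and inflammation, 1 was called lower as deposited and 5 after scaling, with medians of -0.46 and -1.01 and 10 and 13 genes lower by the adjusted p alone. Of all mRNAs, 5.9% and 22.8% were lower by the adjusted p alone. The genes called only after scaling included TREM1, an amplifier of inflammatory signals (-2.13 ± 0.07), TLR4, the lipopolysaccharide receptor (-1.82 ± 0.08), and SOCS3, an inhibitor of cytokine signalling (-1.59). Of 13 genes of neutrophil granules and maturation, ARG1 was called higher and S100A8 lower as deposited, and 4 were called lower after scaling. Beside S100A8 these were CHI3L1 (-2.15 ± 0.08), S100A12 (-2.14 ± 0.17) and MMP9 (-1.57), and MMP9 did not keep its call without the second D7 pig (-1.44) or without the first D28 pig (-1.38). ARG1, arginase, went the other way from these genes as deposited, from 104 FPKM in both D7 pigs to 339 and 408 FPKM at D28 (1.82 ± 0.13), and stood at 0.91 ± 0.13 after scaling. Of 11 monocyte and dendritic cell genes, CD14 was called lower on both scales and CD163, a scavenger receptor for haemoglobin, after scaling only (-1.99 ± 0.08).

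Platelet genes were lower at D28 on both scales by the adjusted p, without passing the fold limit as deposited. Of 16 listed platelet and megakaryocyte genes, 12 were lower and none higher by the adjusted p alone as deposited (12 and none also at an unadjusted p under 0.05 in limma), and 14 were lower and none higher after scaling. Of all mRNAs, 5.9% were lower by the adjusted p alone as deposited and 22.8% after scaling. The list medians were -0.44 and -1.23, and -0.81 with the 10 most abundant mRNAs removed. SELP, the adhesion molecule P-selectin of platelet granules, had 7.85 and 8.32 FPKM at D7 and 3.67 and 3.76 FPKM at D28 (-0.95 ± 0.07 as deposited, -1.79 ± 0.07 after scaling). CLEC1B, a receptor that activates platelets, was at -0.87 and -1.75, TUBB1, the platelet tubulin, at -0.67 and -1.57, and the clotting factor subunit F13A1 at -0.65 and -1.57. These 4 were the platelet genes called lower after scaling.

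Interferon response genes went both ways as deposited and were mostly lower after scaling. CXCL10, a chemokine that draws activated T cells, had 0.170 and 0.131 FPKM at D7 and 3.54 and 3.96 FPKM at D28, and GBP1, a guanylate-binding protein, had 6.92 and 7.39 FPKM and then 58.6 and 63.0 FPKM. Both were called higher on both scales, by 2.05 and 1.90 for CXCL10 and by 2.92 and 2.09 for GBP1. The antiviral genes IFIT2 (-0.93 as deposited, -1.82 ± 0.06 after scaling), MX2 (-0.80 and -1.66 ± 0.08), OAS2 (-0.64 as deposited) and IRF7 (-0.67 and -1.51) were called lower after scaling only. OAS2 lay at the fold limit, and both OAS2 and IRF7 lost that call without the second D7 pig (-1.46 for IRF7) and without the second D28 pig (-1.48 and -1.32). Over the 21 listed genes the median was -0.01 as deposited and -0.63 after scaling.

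The red cell list lay near the median of all mRNAs as deposited and below it after scaling. Of 26 genes of erythroid differentiation and the red cell membrane, 18 were higher and 2 lower by the adjusted p alone as deposited. Of all mRNAs, 65.3% were higher and 5.9% lower on that scale. After scaling, 5 of the list were higher and 16 lower, beside 18.4% and 22.8% of all mRNAs. The list's median was 0.44 as deposited, -0.37 after scaling and 0.04 with the 10 most abundant mRNAs removed. Over all mRNAs these medians were 0.46, 0.02 and 0.26. AHSP, the chaperone of free alpha haemoglobin, was called lower on both scales, with 610 and 631 FPKM at D7 and 195 and 146 FPKM at D28 (-1.87 ± 0.13 and -2.79 ± 0.14). EPB42, a protein of the membrane skeleton, was called higher as deposited, from 27.3 and 28.2 FPKM to 87.6 and 95.7 FPKM (1.69 ± 0.07), but stood at 0.79 ± 0.08 after scaling. BNIP3L, which removes mitochondria from maturing red cells, was called lower after scaling only (-1.53), and not without the first D28 pig (-1.35). Among 14 genes of haemoglobin and haem synthesis, HBZ, the embryonic zeta chain, was the one called, after scaling only, with 107 and 113 FPKM at D7 and 66.7 and 70.7 FPKM at D28 (-0.67 ± 0.09 and -1.59 ± 0.09), and the list's median was 0.53 as deposited and -0.13 after scaling.

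The other lists held few calls. Of 26 cell cycle genes, BIRC5, the mitotic protein survivin, had 17.6 and 18.4 FPKM at D7 and 6.59 and 6.73 FPKM at D28 and was called lower after scaling (-2.20 ± 0.07), not as deposited (-1.31 ± 0.07). The list's median was 0.40 as deposited and -0.12 after scaling. STMN1, a microtubule regulator, was called higher as deposited (1.98), and lost the call without the second D7 pig (1.37) and without either D28 pig (2.11 and 1.85). Of 8 eosinophil, basophil and mast cell genes, MS4A2, the beta chain of the IgE receptor of basophils and mast cells, was called lower after scaling, with 5.60 and 5.45 FPKM at D7 and 1.48 and 1.43 FPKM at D28 (-1.41 ± 0.06 and -2.23 ± 0.08). Of 9 glucocorticoid-responsive genes, the kinase SGK1 was called lower on both scales (-1.65 ± 0.08 and -2.55 ± 0.08), while FKBP5 and PER1 were at 0.59 and 0.51 as deposited and at -0.22 and 0.31 after scaling. No call was made by limma on either scale among 11 genes of iron handling, 13 mitochondrially encoded subunits and 10 developmental regulators. At an unadjusted p under 0.05 in limma, the direction of these lists depended on the scale. As deposited, 5, 8 and 2 were higher and 3, 1 and 0 lower, beside 8301 higher and 780 lower of all 12354 mRNAs. After scaling, 0 were higher in each list, and 4, 7 and 7 were lower, beside 2910 higher and 3215 lower of all mRNAs.

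**Figure D3:**
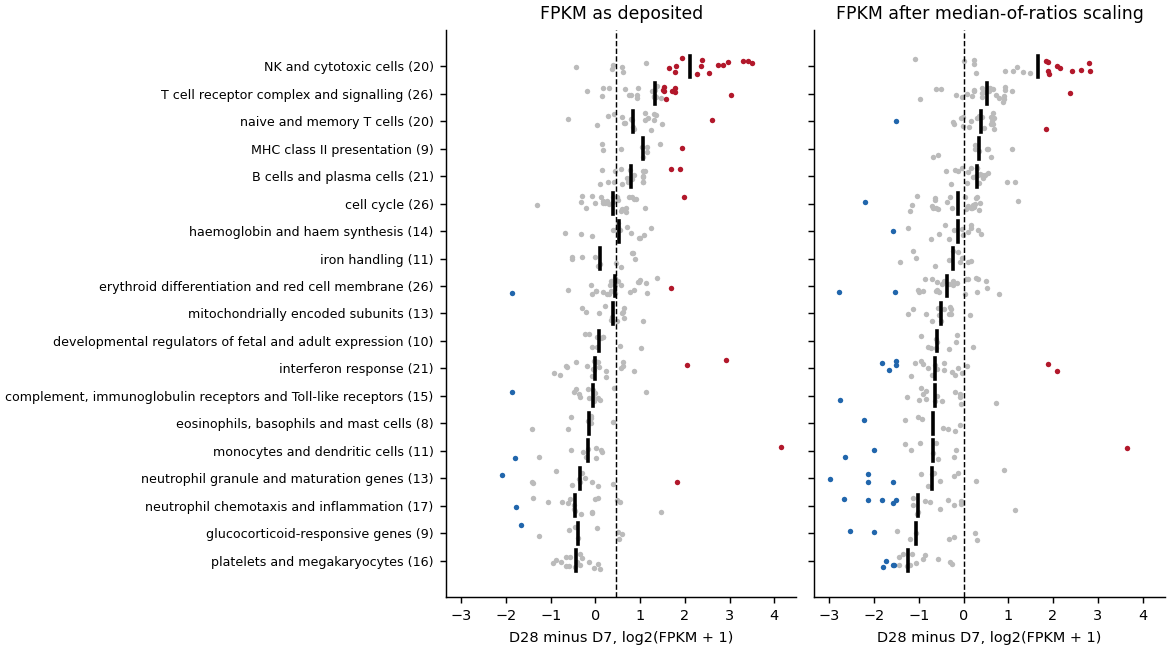
D28 minus D7 differences (x axis, log2) of the members of 19 gene lists (rows), as deposited and after median-of-ratios scaling, with called mRNAs in red (higher) or blue (lower), the list median as a bar and the median of all mRNAs as a dashed line. The NK and cytotoxic list lies furthest to the right on both scales, with medians of 2.10 and 1.66, and the platelet list lies furthest to the left after scaling, with a median of -1.23.

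Whether a change lasted was read from D180 and Y2. A called change was counted as kept at a later age when that age still differed from D7 in the same direction by the adjusted p and had not moved back from D28, as partly reversed when it differed from D7 but had moved back, and as reversed when it had moved back from D28 and no longer differed from D7 in that direction. These comparisons share the D7 and D28 libraries with the one that chose the genes, and the counts are a description with no test. They must be read beside the shift of all mRNAs, whose median was 1.58 above D7 at D180 and 0.90 above it at Y2 as deposited, and 0.02 and 0.01 after scaling. By the adjusted p as deposited, 93.5% of all mRNAs were above D7 at D180 and 84% at Y2, and 2.35% and 3.78% were below it. Against D28, 90.6% and 63.9% were above it and 3.32% and 6.16% below it. After scaling, 15.7% and 17.6% were above D7 and 22.7% and 23.1% below it, and 14.4% and 15.6% were above D28 and 18% and 16.8% below it.

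As deposited, most of the rises were kept and most of the falls were reversed. Of the 249 higher mRNAs, 184 were kept at D180 and 146 at Y2, 143 at both ages (57.4%), and 19 were reversed at both (7.63%). Of the 47 lower mRNAs, 3 were kept at both ages and 32 were reversed at both (68.1%), and their median difference from D7 turned from -1.87 at D28 to 1.06 at D180 and 0.40 at Y2. After scaling, the picture was one of partial return in both directions. Of the 58 higher mRNAs, 4 were kept at both ages, 24 were partly reversed at both and 16 were reversed at both (27.6%), with a median difference from D7 of 1.88 at D28, 0.54 at D180 and 0.95 at Y2. Of the 225 lower mRNAs, 52 were kept at both ages (23.1%), 110 were partly reversed at both and 12 were reversed at both, with medians of -1.82, -0.98 and -0.93.

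**Figure D4:**
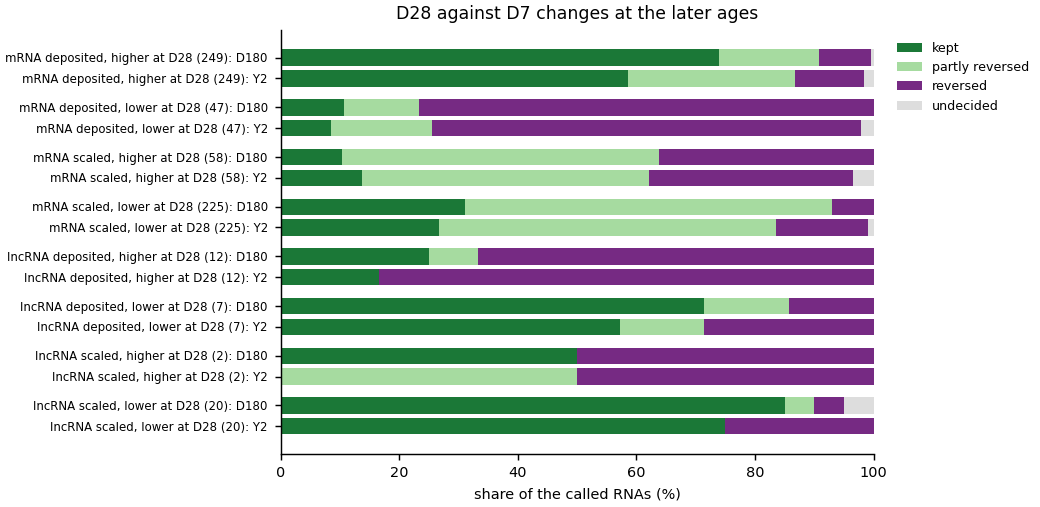
Shares (x axis, percent of called rows) of the mRNAs and lncRNAs called higher or lower at D28 that were kept, partly reversed, reversed or undecided at D180 and at Y2, on each scale. The mRNAs higher at D28 were mostly kept as deposited (184 of 249 at D180) and mostly partly reversed after scaling (31 of 58), and the lncRNAs lower after scaling were mostly kept (17 of 20).

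Most of the cytotoxic genes called on both scales were partly reversed after scaling. CX3CR1 had scaled levels of 1.44 and 1.63 at D7, 28.9 and 33.4 at D28, 5.34 and 4.97 at D180 and 9.10 and 8.83 at Y2, and was partly reversed at both ages on both scales. TBX21, PRF1, ADGRG1 and GZMH were also partly reversed at both ages on both scales. NKG7, CD8A and FASLG were kept at both ages as deposited and partly reversed after scaling. GZMA and CCL5 each counted as reversed at 1 later age after scaling. GZMA was at scaled levels of 2.24 in both Y2 pigs against 2.55 and 2.36 at D7. CCL5 was at 28.4 and 21.8 at D180 against 20.4 and 20.9 at D7, and at 56.7 and 49.3 at Y2. The scaled sum over the NK and cytotoxic list was 74.4 and 98.7 at D7, 108 and 95.6 at D180 and 200 and 184 at Y2. These sums include CTSW, which was uneven between the D7 pigs, with 4.41 and 17.9 FPKM as deposited. The overlap of D180 with D7 is therefore not read as a return of the list to its D7 level.

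Some rises were gone at both later ages. TFF1 was listed at 0 and 0.0251 FPKM at D180 and at 0 in both Y2 pigs, after 12.9 and 13.6 FPKM at D28, although both D0 pigs had held 3.78 and 4.02 FPKM. ASNS was at 3.92 and 3.44 FPKM at D180 and at 2.95 and 2.53 FPKM at Y2, below its D7 level of 4.73 and 5.36 FPKM. These 2 genes were reversed at both ages on both scales, and SARS1, SLC3A2, DYNLRB2 and TSPAN31 were reversed at both ages after scaling. TAGLN was still at 26.7 and 20.9 FPKM at D180 and back at 0.268 and 0.234 FPKM at Y2. REXO2 was at 85.9 and 79.4 FPKM at D180 and again at 220 and 212 FPKM at Y2, and was kept at Y2 as deposited. The 4 mRNAs kept at both ages after scaling were INTS15, BCL7B, SNORA74 and 1 without a symbol, named after their values were seen. INTS15, a subunit of the Integrator complex, was listed at 0 in both D7 pigs and had 3.66 and 2.84 FPKM at D28, 9.28 and 9.78 FPKM at D180 and 4.44 and 4.88 FPKM at Y2.

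Several genes that were lower at D28 moved back at the later ages, most of them in part after scaling. CD14 had scaled levels of 18.1 in both D7 pigs, 2.02 and 2.06 at D28, 11.4 and 10.9 at D180 and 6.86 and 6.80 at Y2, so that it was partly reversed after scaling and reversed as deposited. CSF3R, TGFBI, STEAP4, CFD and SDS were counted in the same way, whereas S100A8 and S100A12 were kept at D180 and partly reversed at Y2 after scaling. IL18 had scaled levels of 9.43 and 8.52 at D7, 0.299 and 0.230 at D28, 2.19 and 2.57 at D180 and 8.64 and 9.23 at Y2, where it no longer differed from D7. MS4A2 had scaled levels of 11.2 and 10.1 at D7 and 1.48 in both D28 pigs, and was back at 11.4 and 10.9 at D180 and at 11.8 and 11.2 at Y2. IFIT2 was likewise reversed at both ages, with 28.7 and 28.0 at D7, 7.36 and 7.30 at D28 and 26.4 to 30.6 later.

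Other falls lasted. AHSP had scaled levels of 1216 and 1170 at D7, 195 and 150 at D28, 36.8 and 29.8 at D180 and 155 and 147 at Y2. On that scale it counted as kept at both ages. As deposited, the 3 mRNAs with a fall kept at both ages had no symbol, so AHSP was not among them. The platelet genes SELP, CLEC1B, TUBB1 and F13A1 were also kept at both ages after scaling. SELP had scaled levels of 15.7 and 15.4 at D7, 3.66 and 3.87 at D28, 3.74 and 3.33 at D180 and 2.13 and 2.19 at Y2. HBZ and BIRC5 were kept at both ages after scaling, HBZ with scaled levels of 213 and 210 at D7 and of 66.6 and 72.8 at D28, and with 2.76 and 2.36 at D180. As deposited, the platelet genes had not been called, and SELP stood at 10.7 and 10.1 FPKM at D180 against 7.85 and 8.32 FPKM at D7, so that its lasting fall holds for the scaled levels alone.

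A few mRNAs without a symbol were singled out after their values were seen, because they had the largest differences of all. ENSSSCG00000034995 was listed at 0 and 0.0145 FPKM at D7 and at 150727 and 105994 FPKM at D28 (16.94 ± 4.09, adjusted p = 0.0054). It was between 53773 and 123713 FPKM in both D0 pigs, both D180 pigs and the first Y2 pig, and listed at 0 in the second Y2 pig. ENSSSCG00000038379 had 34457 and 31600.5 FPKM at D7, 0.0068 and 0.163 FPKM at D28 (-14.90 ± 3.48, adjusted p = 0.0046) and 18587 FPKM in the second Y2 pig, and was near 0 in all other libraries. One was thus high in exactly the libraries in which the other was near 0, including 2 pigs of the same age. Neither is described further as a difference between ages. RPS24, a ribosomal protein, was also uneven within an age, with 788 and 843 FPKM at D7, 177 and 242 FPKM at D28 and 203 and 681 FPKM at Y2 (-1.97 ± 0.47 and -2.90 ± 0.47).

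Long noncoding RNAs, transcripts without a recognised coding sequence that are often low and restricted to few cell types, gave fewer calls. As deposited, 12 of the 5946 lncRNAs were called higher at D28 (0.202%) and 7 lower (0.118%), and after scaling 2 were called higher (0.0336%) and 20 lower (0.336%). The 2 that were higher after scaling were among the 12, and the 7 that were lower as deposited were among the 20. This nesting again follows largely from the factors. Without the fold limit, 4.24% were higher and 1.01% lower as deposited, and 1.92% higher and 4.42% lower after scaling. These counts leaned on the shared spread: with only the D7 and D28 libraries in the limma fit, 0 were called higher on either scale, although 969 as deposited and 360 after scaling were higher at an unadjusted p under 0.05, and 2 and 4 were called lower. Positions are those of the authors' assembly on Sscrofa11.1, and genes are from RefSeq on that build.

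TCONS_00085386, on chromosome 17 from 34827052 to 34828114 on the minus strand and 7460 nt from the nearest coding gene, TRIB3, had 1.70 and 1.44 FPKM at D7 and 11.1 and 11.6 FPKM at D28. It was called higher on both scales, by 2.27 ± 0.15 (adjusted p = 0.00077) and by 1.64 ± 0.17 (adjusted p = 0.0023). The D180 pigs had 0.608 and 0.895 FPKM and the Y2 pigs 2.12 and 2.72 FPKM, so that its rise was reversed at both ages. The D0 pigs had 11.1 ± 1.46 FPKM (mean ± SD, n = 2) as deposited, near the D28 pigs, but a scaled level of 24.9 ± 3.98 against 11.5 ± 0.637 at D28. TCONS_00031533, on chromosome 12 from 23983898 to 24004250 on the plus strand, overlaps TBX21, and had 0 and 0.0443 FPKM at D7, 2.47 and 1.59 FPKM at D28, 3.76 and 3.93 FPKM at D180 and 1.61 and 1.55 FPKM at Y2. It was called higher by 1.55 ± 0.13 as deposited and 1.54 ± 0.13 after scaling and, as deposited, was kept at both ages. The call was lost without the first D28 pig on both scales (1.34 on each) and without the first D7 pig after scaling (1.48). The TBX21 mRNA was higher on both scales too, and how fragments were divided between the overlapping transcripts was not tested.

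The other 10 lncRNAs called higher as deposited were not called after scaling. The highest was TCONS_00161585, which lies over CRISP3 on chromosome 7 from 43800982 to 43807007 and had 9.49 and 8.97 FPKM at D7, 45.4 and 45.1 FPKM at D28 and 6.10 and 5.67 FPKM at Y2 (2.18 ± 0.21 as deposited, 1.32 ± 0.22 after scaling). TCONS_00133414, TCONS_00133416 and TCONS_00133417 come from one locus of chromosome 5 and are not independent, and rose by 1.72, 1.89 and 1.81 as deposited. In 37.4% of all lncRNAs both D28 pigs lay above both D7 pigs on that scale, and in 10.7% below them (16.5% and 24.2% after scaling). All 3 of these lncRNAs were reversed at both later ages, TCONS_00133417 with 22.9 and 23.5 FPKM at D28, 2.80 and 4.40 FPKM at D180 and 4.09 and 3.23 FPKM at Y2. TCONS_00041227, which overlaps XRN1, was kept at both ages as deposited, with 0.405 and 0.214 FPKM at D7, 2.76 and 2.97 FPKM at D28 and 2.50 to 2.89 FPKM later. Its scaled levels were 0.807 and 0.396 at D7, 2.75 and 3.05 at D28, 0.871 and 0.873 at D180 and 1.81 and 1.71 at Y2. On that scale D180 was thus back near D7. The calls of TCONS_00088328, TCONS_00169102 and TCONS_00055093 were lost with at least 1 pig left out: the first 2 with any of the 4 pigs, and the last with the second D7 pig (1.30). TCONS_00088328 then had differences of 1.72 to 1.75 and TCONS_00169102 of 1.38 to 2.02.

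The largest differences among the called lncRNAs were falls. TCONS_00090324, on chromosome 18 from 25539051 to 25539274 on the minus strand, had 105 and 110 FPKM at D7 and 1.81 and 2.08 FPKM at D28 (-5.21 ± 0.16, adjusted p = 1.4e-05, and -6.13 ± 0.18, adjusted p = 8.3e-06). It had 12.9 and 10.7 FPKM at D180 and 5.05 and 5.18 FPKM at Y2, and its fall was partly reversed as deposited and kept after scaling. TCONS_00119399, on chromosome 3 from 118016880 to 118018022, had 27.1 and 29.9 FPKM at D7, 1.55 and 0.751 FPKM at D28 and at most 0.379 FPKM later (-3.80 ± 0.18 and -4.71 ± 0.18). TCONS_00119400 overlaps it, from 118016880 to 118018031 on the same strand, and they are not independent. TCONS_00119400 had 31.2 and 32.1 FPKM at D7 and 9.37 and 9.78 FPKM at D28 (-1.63 ± 0.19 and -2.53 ± 0.18). TCONS_00186608, on chromosome 9 from 22829076 to 22829340, had 3.54 and 3.83 FPKM at D7 and was listed at 0 in all 6 libraries of D28, D180 and Y2, after 6.23 and 6.21 FPKM at D0 (-2.23 ± 0.07 and -3.01 ± 0.08). These 3 were kept at both later ages on both scales.

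The other lncRNAs called lower on both scales were less even. TCONS_00130021, over GPSM2, had 10.1 and 11.0 FPKM at D7, was listed at 0 in both D28 pigs, and had 16.0 and 14.2 FPKM at D180 and 41.7 FPKM in the first Y2 pig. TCONS_00195448, on an unplaced scaffold, had 56.5 and 7.40 FPKM at D7 and was listed at 0 in both D28 pigs. TCONS_00045377, 12099 nt from RUNX1, had 2.05 and 1.63 FPKM at D7, was listed at 0 in the D28 and D180 pigs, and had 5.20 and 4.12 FPKM at Y2. TCONS_00130021 was not called on either scale with any of the 4 pigs left out (-3.58 to -3.47 as deposited, -4.42 to -4.40 after scaling). TCONS_00195448 was not called without either D28 pig (-4.46 and -5.35 as deposited and after scaling), and TCONS_00045377 not without the first D7 pig as deposited (-1.39).

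Changes of lncRNAs at later ages were counted in the same way, again with shared libraries. By the adjusted p as deposited, 59.7% of all lncRNAs were above D7 at D180 and 36.1% at Y2, and 2.22% and 2.05% below it, while 55.8% and 23.1% were above D28 and 2.79% and 2.64% below it. After scaling, 3.01% and 2.69% were above D7 and 4.32% and 3.82% below it, and 3.82% and 3.06% were above D28 and 2.14% and 1.82% below it. Of the 12 called higher as deposited, 2 were kept and 8 reversed at both ages, and of the 7 called lower, 4 were kept and 1 was reversed at both.

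Of the 20 lncRNAs that were lower after scaling, 17 were kept at D180 and 15 at Y2, the same 15 at both ages (75%). The mRNAs named next were chosen because a called lncRNA overlaps them. Among the 13 called on that scale alone, TCONS_00045515, over KCNJ15, had 1.56 and 2.01 FPKM at D7 and was listed at 0 in both D28 pigs (-2.14 ± 0.12), and the KCNJ15 mRNA, a potassium channel, fell as well, with 1.51 FPKM in both D7 pigs and 0.199 and 0 FPKM at D28 (-1.84 ± 0.09). TCONS_00043328 and the mRNA of LPP, the gene it overlaps, were at -1.71 ± 0.14 and -1.64 ± 0.09. TCONS_00046620, over XCR1 and CCR1, was at -1.67 ± 0.19, and CCR1, a receptor for CCL5 and related chemokines, at -2.34 ± 0.06. In contrast, the mRNAs of XRN1, ADD2, GPSM2, CRISP3, SPINK4, SLC25A21, PARM1 and XCR1 were not called on either scale although a lncRNA over them was called on at least 1 scale. XCR1, under the same lncRNA as CCR1, was at -0.22 ± 0.10 after scaling. TCONS_00086451, which overlaps NFATC2, had 0.628 and 0.707 FPKM at D7, 2.41 and 2.02 FPKM at D28, 5.52 and 5.44 FPKM at D180 and 2.34 and 2.38 FPKM at Y2. It was higher at D28 by the adjusted p on both scales but under the fold limit (0.95 ± 0.09, adjusted p = 0.0031, and 0.51 ± 0.10, adjusted p = 0.025).

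**Figure D5:**
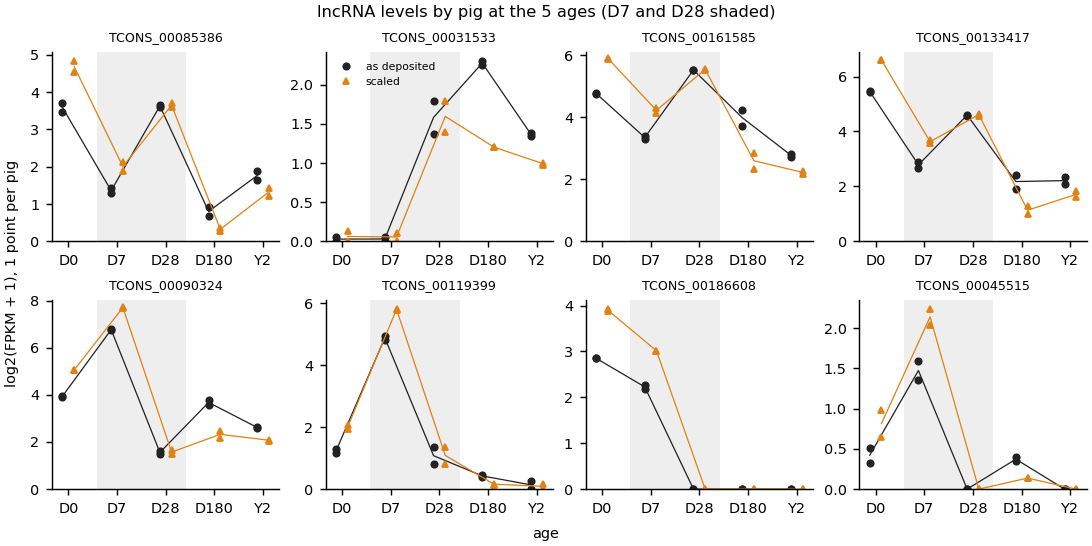
Levels of 8 lncRNAs in each pig at the 5 ages (x axis, age; y axis, log2(FPKM + 1)), with black points as deposited and orange points after median-of-ratios scaling. TCONS_00085386 was low at D7 and higher at D28 with 11.1 and 11.6 FPKM, TCONS_00090324 and TCONS_00119399 were highest at D7 among the ages from D7 on, and TCONS_00186608 was listed at 0 from D28 on.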

How the data were processed

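Ribosomal RNA was removed from peripheral blood RNA extracted with TRIzol, and strand-specific libraries were sequenced on an Illumina HiSeq instrument. The submitters' notes name CASAVA 1.8.2, HISAT2 2.0.4, StringTie 1.3.3 and Cufflinks 2.2.1 and the build Sscrofa11.1. The authors deposited FPKM for mRNAs, from StringTie, and for lncRNAs, from the Cufflinks programs, with mRNAs above 0.5 FPKM and lncRNAs above 0.1 FPKM in at least 1 library. Depth is therefore unknown for single values, and the small number of pigs limits the precision. Whether pigs shared a litter or a day of sampling is not given, and p-values measure the spread between these pigs.

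Symbols for 9735 of the 12354 mRNAs came from an Ensembl name table, and gene positions from RefSeq on Sscrofa11.1. Median-of-ratios factors used the 11527 mRNAs that no library lists at 0, and were applied to both tables. Values were analysed as log2(FPKM + 1) in limma 3.58.1 (R 4.3.3), which took all 5 ages in 1 fit with a trend of the variance on the mean, and p-values were adjusted by Benjamini-Hochberg over each table. The fit was tested on simulated data. Tables and figures were made with Python 3.11.15, numpy 2.4.6, pandas 2.3.3 and matplotlib 3.10.9.

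The genes compared, the 19 lists and the tests were chosen with earlier results of these data known. Named genes were the 12 mRNAs and 8 lncRNAs with the largest called differences in each direction on each scale, called or most abundant members of the lists, genes the study discusses and the 10 most abundant mRNAs. The 12 mRNAs and 8 lncRNAs were taken only from rows whose D28 pigs both lay on the same side of both D7 pigs. The 12 mRNAs also had to have a symbol. Of the listed symbols, 100 were not found in the mRNA table. Alternatives were a pseudocount of 0.1, only the D7 and D28 libraries in the fit, the pig number as a block, no trend, a filter of at least 1 FPKM for mRNAs or 0.5 FPKM for lncRNAs in 2 libraries, each pig left out in turn, the fold limit on the ratio of mean FPKM, and a scaling without the 10 most abundant mRNAs. Pig numbers come from the labels, and pigs of the same number at different ages are different animals. Some members of the lists are counted with their list and not reported here by name.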

Additional observations from a re-analysis of the deposited data

How the results depend on the processing

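The numbers of calls depended on the scaling, the fold limit on log2(FPKM + 1) and, for lncRNAs, the ages in the fit. Numbers of calls follow as higher and lower at D28, first as deposited and then after scaling. A pseudocount of 0.1 gave 1269 and 168, then 259 and 584 mRNAs, and 208 and 86, then 79 and 194 lncRNAs. With the limit on the ratio of mean FPKM there were 1922 and 223, then 356 and 704 mRNAs, and 167 and 54, then 93 and 218 lncRNAs. With only the D7 and D28 libraries in the fit, limma called 0 and 2, then 0 and 4 lncRNAs, and 248 and 47, then 59 and 224 mRNAs. Removal of the 10 most abundant mRNAs gave 119 and 95 mRNAs and 7 and 12 lncRNAs, and turned the small deposited differences of SOS2 (-0.20), TEC (-0.15) and XRN1 (-0.14), which were not called. With a pseudocount of 0.1, the numbers kept and reversed at both D180 and Y2 became 1044 and 34 for mRNAs that rose as deposited, 12 and 118 for those that fell, 77 and 41 for those that rose after scaling and 147 and 90 for those that fell. The same numbers for lncRNAs were 120 and 38, 26 and 38, 16 and 23, and 68 and 48.

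With each of the 4 pigs left out in turn, 230 to 294 mRNAs were higher and 46 to 52 lower as deposited, and 61 to 68 higher and 212 to 240 lower after scaling. For lncRNAs the numbers were 10 to 18 and 5 to 8, then 3 to 7 and 17 to 25. Of these, mRNAs that rose as deposited were kept at both ages in 134 to 181 cases and reversed in 18 to 26, those that fell in 2 to 4 and 31 to 38, those that rose after scaling in 5 to 6 and 14 to 21, and those that fell in 47 to 64 and 8 to 17. For lncRNAs these were 2 to 2 and 8 to 13, 3 to 4 and 0 to 1, 0 to 2 and 3 to 5, and 14 to 16 and 2 to 3. The number of lncRNAs called higher after scaling was unstable, and was larger with any 1 of the 4 pigs left out than with all pigs. Of those higher as deposited, 13 were reversed at both ages without the second D28 pig against 8 with all pigs.

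Same-numbered D7 and D28 pigs deviated together with r = 0.026 over mRNAs and r = -0.41 over lncRNAs as deposited, over rows that are not independent, and the numbers were not taken to pair the pigs. The fit with the pig number as a replicate block called 249 and 47, then 58 and 225 mRNAs, and 12 and 7, then 2 and 19 lncRNAs. A crossed block, with the D28 numbers exchanged and added after the data were seen, gave 249 and 47, 58 and 225, 12 and 7, and 2 and 20. Without the trend and with the filter on low FPKM, every count stayed within 1.5 times the value in the report. The scaled difference of XCL1, which was not called, turned to -0.0076 with a pseudocount of 0.1 and ranged from -0.21 to 0.23 with 1 pig left out.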
